A study of Saccharomyces cerevisiae with 36 samples.

Results

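The autophagy-related (ATG) genes of budding yeast were followed across 18 conditions on dual-channel 70-mer oligonucleotide arrays. Members were all genes with the symbol ATG and a number in the deposited annotation, apart from ATG33, whose spot gave no signal on 14 of the 36 arrays. The rule left 26 genes, each with 1 probe spotted 2 times, of 6388 yeast probes, and it used no expression value of the members. Autophagy is the pathway by which a cell wraps part of its own cytoplasm in a double membrane, the autophagosome, and delivers it to the vacuole for breakdown. In yeast it is switched on when nutrients run out and the TORC1 kinase goes quiet, and it supplies amino acids and lipids to the starved cell. The Atg proteins act in groups, from the Atg1 kinase complex that starts the process, through Atg9 vesicles, a lipid kinase and 2 ubiquitin-like conjugation systems that build the membrane, to the lipase and exporters that finish the work in the vacuole. Selective forms use receptors that tie a cargo such as mitochondria, or the enzymes of the cytoplasm-to-vacuole targeting (Cvt) pathway, to the same machinery.

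The study profiled mutants of NuB4, the nuclear histone-binding complex of the acetyltransferase Hat1 with Hat2 and the chaperone Hif1, together with histone strains built for the RITE assay, in which a Cre recombinase swaps an epitope tag on histone H3. Each strain was hybridized on 2 arrays, with the dyes swapped, against a common wild-type reference RNA, so every value below is a log2 ratio of strain over that reference. Starved cells in rich medium (16 arrays) came from 8 RITE strains with H3 carrying HA and a downstream T7 tag, namely hat1Δ, hat2Δ, hif1Δ, hat1Δhif1Δ, hat2Δhif1Δ, H4K5,12Q and H4K5,12R (lysines 5 and 12 of H4 changed to glutamine or to arginine), and wild type, whereas growing cells were harvested early in exponential growth on glucose in synthetic complete medium. The methods give separately inoculated cultures for every strain, but the sources do not say that both arrays of a strain hold different cultures, so p-values measure the spread between arrays, which may be technical in part. The growing cells were 3 RITE strains (H3-HA, H3-T7 and untagged H3, 6 arrays) and 7 deletion strains (all single, double and triple deletions of HAT1, HAT2 and HIF1, 14 arrays).

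All RITE strains, starved and growing, lacked one of the pairs of H3 and H4 genes and carried Cre fused to an estrogen-binding domain and driven by the TDH3 promoter, and the strain list gives them as MATa with BAR1 disrupted, whereas the growing deletion strains were built in BY4742, which is MATα. The labels name BY4742 for all samples. MFA1, which only a cells express, read 3.83 to 5.59 on the starved and growing RITE arrays and -0.13 to 0.12 on the growing deletion arrays. MFA2, STE2 and STE6 went the same way, so by these genes the mating types were those of the strain list and not those of the labels. Of the α-specific genes, STE3 read -1.96 to -1.07 on starved, -3.63 to -2.97 on growing RITE and -0.17 to 0.22 on deletion arrays. SAG1 was less clear, at -0.88 to 1.37 on starved, -3.37 to -1.76 on growing RITE and -0.27 to 0.21 on deletion arrays. BAR1 read 2.02 to 3.31 on the starved arrays and 2.45 to 3.16 on the growing RITE arrays, although the strain list gives it as disrupted. The labels also call the molecule nuclear RNA for every sample. They give no time of starvation. A supplementary legend on these G0 strains states 3 days, a time the paper counts from induction of the tag switch with estradiol in saturated cultures. The methods harvest starved cells as for the turnover experiments, but do not say whether the profiled cultures received estradiol. If they did, estradiol and the switch of H3 from HA to T7 cannot be told apart from starvation either. The RNA of all starved strains was isolated by another protocol than that of all growing strains and of the reference, so starvation, medium and RNA isolation cannot be told apart in these arrays. Starved wild type and the growing RITE strains were also different strains, with LEU2 or MET15 at the deleted histone locus, lys2 or trp1 among the other markers, and a switchable HA-T7 cassette in starved wild type against untagged or single-tagged H3 in the growing strains, so strain cannot be told apart from starvation either.

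On 94.6% to 99.5% of the probes the strain channel was above background, and the deleted genes read as labelled, with HAT1 at -3.33 to -2.23 on growing arrays of strains that lack it and at 0.03 to 0.16 on the other growing deletion arrays. All 8 stationary phase and stress genes examined were higher in starved wild type than in growing RITE strains, and 4 of 4 growth genes were lower. The 14 arrays without signal at the ATG33 spot, in either channel, were those of starved wild type, the 3 starved single deletions and the growing RITE strains, and the other 22 arrays had signal there. The first comparison below therefore lies within the array set without this signal, as do the 3 starved single deletions against starved wild type, and starved against growing double deletions lies within the set with it. All other comparisons of starved with growing cells, or of starved double deletions and histone mutants with starved wild type, cross both sets.

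Starved wild-type cells were first compared with the growing RITE strains, to ask how the autophagy genes stand in the starvation arrest used for the turnover assays. Of the 26 ATG genes, 25 were higher in starved wild type and 1, ATG27, was lower (limma, adjusted p under 0.05, corrected over all probes). The test called 40.0% of all probes higher and 38.2% lower in this comparison, so most of the genome moved, but nearly all ATG genes moved one way. At least 1.7-fold higher were 12 ATG genes, against 18.1% of all probes, and 0 were at least 1.7-fold lower, against 16.7% of all probes. The median change of the members was 0.70 on the log2 scale and that of all probes was 0.01. Since each array was scaled to its own bulk of probes, these are changes relative to other transcripts. A change in total mRNA per cell would not be seen.

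**Figure D1:**
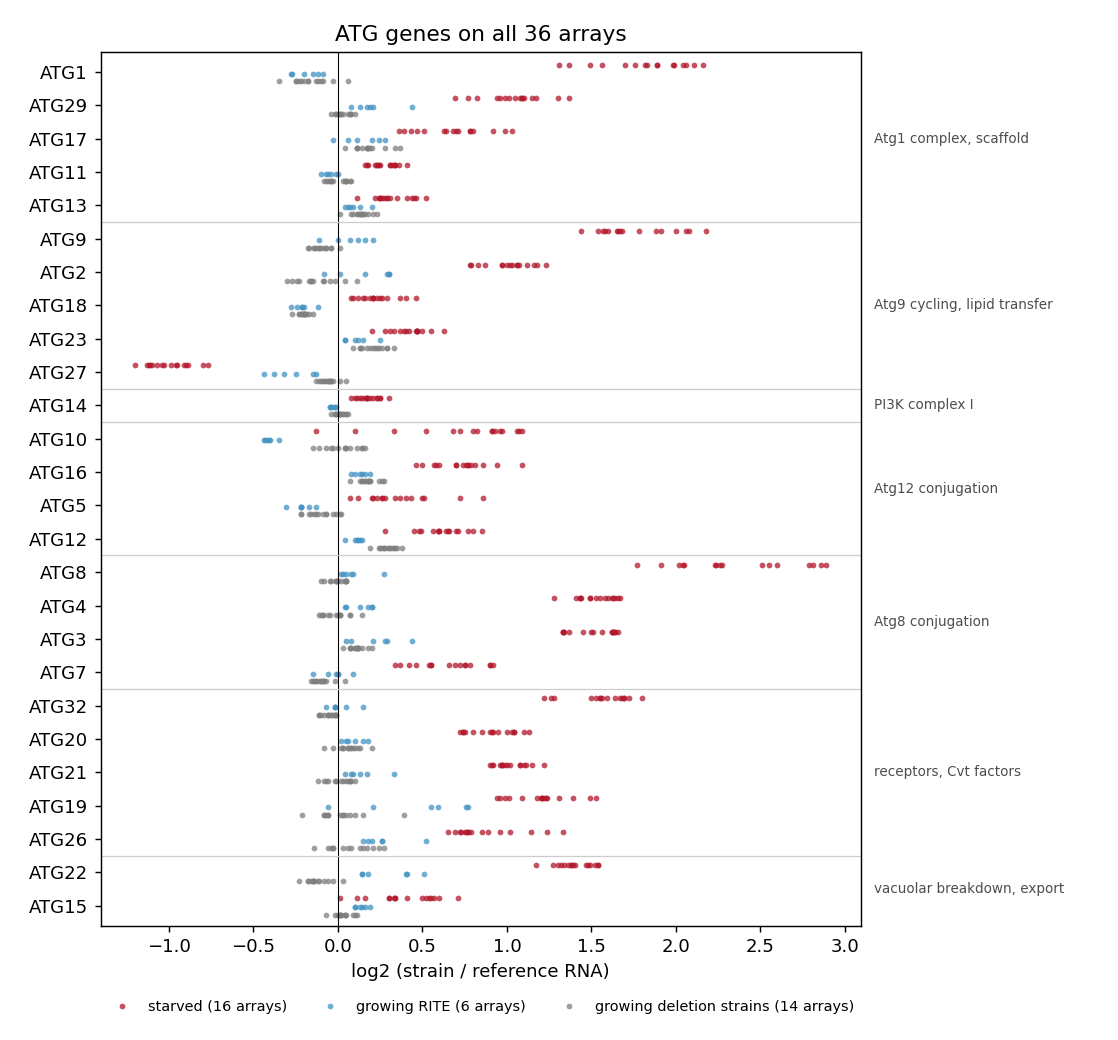
Log2 ratio of strain over reference RNA (x axis) for each of the 26 ATG genes (rows, grouped by role), with 1 point per array for the 16 starved, 6 growing RITE and 14 growing deletion arrays. For 19 genes every starved point lies to the right of every growing point, and for ATG27 every starved point lies to the left.

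Over all 36 arrays the separation was complete for most members. In 19 of 26 genes the lowest of the 16 starved arrays was above the highest of the 20 growing arrays, as was the case for 26.3% of all probes. ATG27 alone among the members showed the opposite, with all starved arrays below all growing arrays, as did 26% of all probes. The 6 genes whose starved and growing arrays overlapped were ATG10, ATG12, ATG13, ATG15, ATG17 and ATG23. ATG10 overlapped through the starved hat2Δhif1Δ arrays (-0.13 and 0.10), where its spots were blank. Its other starved arrays read 0.33 or more, against at most 0.16 on growing arrays. Of the separate genes, ATG14 was so by 0.018, with signal above background on 8 of 20 growing arrays.

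Within the Atg1 kinase complex and its scaffold, all 5 members were called higher in starved wild type. ATG1, which encodes the protein kinase that starts autophagosome formation, read 1.89 and 1.82 on the starved wild-type arrays, against -0.28 at the lowest, -0.17 at the median and -0.09 at the highest of the 6 growing RITE arrays. Starved and growing values lay far apart, and the change of 2.04 (SE 0.11) was 4.11-fold (adjusted p = 6.9e-09). Only 4.13% of all probes had a higher change in this comparison than ATG1.

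ATG29, which joins Atg17 in the scaffold that gathers the autophagosome-forming proteins during starvation, read 1.10 and 1.05 in starved wild type, against 0.08, 0.18 and 0.44 (lowest, median, highest) on growing RITE arrays. The groups did not overlap, and the change was 0.88 (SE 0.09, adjusted p = 2.3e-06). The partner scaffold gene ATG17 changed by 0.71 (SE 0.07) and ATG11, the scaffold of selective autophagy, by 0.40 (SE 0.06). ATG11 was dim, with the reference channel above background on 30 of 36 arrays, and its change was 2.22-fold without the offset used in background correction, against 1.32-fold with it. ATG13, the regulatory subunit through which TORC1 controls Atg1, had the lowest change of the members that rose, at 0.18 (SE 0.07, adjusted p = 0.027). Its call was lost without the first starved wild-type array (adjusted p = 0.24) and when untagged H3 alone was the control (adjusted p = 0.081).

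Of the 5 genes of Atg9 vesicles and lipid transfer, 4 were higher in starved wild type and 1 was lower. ATG9, a membrane protein of the vesicles that seed the autophagosome, read 1.65 and 2.0 in starved wild type and -0.11, 0.09 and 0.21 (lowest, median, highest) in growing RITE strains. It rose by 1.75 (SE 0.11), or 3.37-fold (adjusted p = 3.6e-08). ATG2, whose product moves lipids into the growing membrane, read 1.02 and 1.07 in starved wild type, against -0.08, 0.23 and 0.30 in growing RITE strains. These groups were also separate, with a change of 0.88 (SE 0.07, adjusted p = 1.3e-07).

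ATG27, which encodes a membrane protein that helps Atg9 cycle, was the exception of the group. It read -0.90 and -0.77 in starved wild type, against -0.44, -0.29 and -0.13 (lowest, median, highest) on growing RITE arrays. Both starved arrays were below all 6 growing arrays, and ATG27 fell by 0.55 (SE 0.08, adjusted p = 3.3e-05). ATG23, which works in the same Atg9 cycling step, changed by 0.28 (SE 0.04), and ATG18, the phosphoinositide-binding partner of Atg2, by 0.36 (SE 0.06), both higher in starved cells.

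In the Atg8 conjugation system all 4 members rose, 3 of them at least 1.7-fold. ATG8 encodes the ubiquitin-like protein that is attached to lipid on the autophagosome and is turned over in the vacuole with it. It read 2.04 and 2.24 in starved wild type and 0.02, 0.06 and 0.27 (lowest, median, highest) in growing RITE strains, a rise of 2.05 (SE 0.15), or 4.13-fold (adjusted p = 1.3e-07). On the growing arrays the ATG8 signal was only 3.2 to 10.8 background SDs above background, and the offset of 50 that steadies dim ratios holds its fold down. Without that offset, a setting chosen after seeing the data, the rise was 9.74-fold, so the size of the ATG8 change depends on the background correction while its direction does not.

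ATG4, the protease that trims Atg8 and frees it again from lipid, read 1.49 and 1.62 in starved wild type, against 0.04, 0.15 and 0.20 in growing RITE strains. It rose by 1.42 (SE 0.08, adjusted p = 1.3e-08). ATG3, the E2-like enzyme that passes Atg8 to lipid, read 1.66 and 1.62 in starved wild type, against 0.05, 0.25 and 0.44 in growing RITE strains. It rose by 1.41 (SE 0.12, adjusted p = 2.5e-07). ATG7, the E1-like enzyme shared with the Atg12 system, changed by 0.62 (SE 0.13, adjusted p = 9.4e-04), the smallest change of the group.

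The Atg12 conjugation system attaches Atg12 to Atg5, which then binds Atg16, and its 4 members rose less than those of the Atg8 system, at a median change of 0.61 against 1.42, a difference between the groups that was not tested. ATG10, the E2-like enzyme for Atg12, read 0.97 and 0.82 in starved wild type, against -0.44, -0.41 and -0.35 in growing RITE strains. The change of 1.30 (SE 0.15, adjusted p = 4.4e-06) was the only one of the group past 1.7-fold. ATG12 read 0.65 and 0.60 in starved wild type, against 0.04, 0.12 and 0.14 in growing RITE strains, and rose by 0.52 (SE 0.09, adjusted p = 2.2e-04). ATG16 rose by 0.64 (SE 0.08) and ATG5 by 0.57 (SE 0.09).

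All 5 genes of the group of receptors, Cvt factors and the sterol glucosyltransferase gene ATG26 were higher in starved wild type. ATG32, the outer membrane receptor that marks mitochondria for autophagy, read 1.56 and 1.67 in starved wild type and -0.07, -0.02 and 0.15 (lowest, median, highest) in growing RITE strains. It rose by 1.61 (SE 0.10), or 3.04-fold (adjusted p = 3.2e-08). ATG19, the receptor of the Cvt pathway, read 1.21 and 1.09 in starved wild type, against -0.06, 0.57 and 0.77 in growing RITE strains. Its growing values spread more widely than those of the other members given here by array, and it rose by 0.68 (SE 0.09, adjusted p = 1.5e-05). ATG20, a sorting nexin, rose by 0.85 (SE 0.08), ATG21, a phosphoinositide-binding protein, by 0.82 (SE 0.08), and ATG26, a sterol glucosyltransferase, by 0.53 (SE 0.10).

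Of the vacuolar members, ATG22, which encodes an exporter of amino acids from the vacuole, read 1.40 and 1.54 in starved wild type, against 0.14, 0.29 and 0.51 in growing RITE strains. It rose by 1.17 (SE 0.08, adjusted p = 3.9e-08), whereas ATG15, the lipase that opens the delivered vesicles, rose by 0.39 (SE 0.08, adjusted p = 0.0010). ATG14, the subunit that directs the phosphatidylinositol 3-kinase to autophagy, had a change of 0.27 (SE 0.05), but its spot was above background on 15 of 16 starved and 8 of 20 growing arrays, and with arrays centred on their median the call was lost (change 0.11, adjusted p = 0.29). Without the offset its change was 2.65-fold, against 1.21-fold with it.

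**Figure D2:**
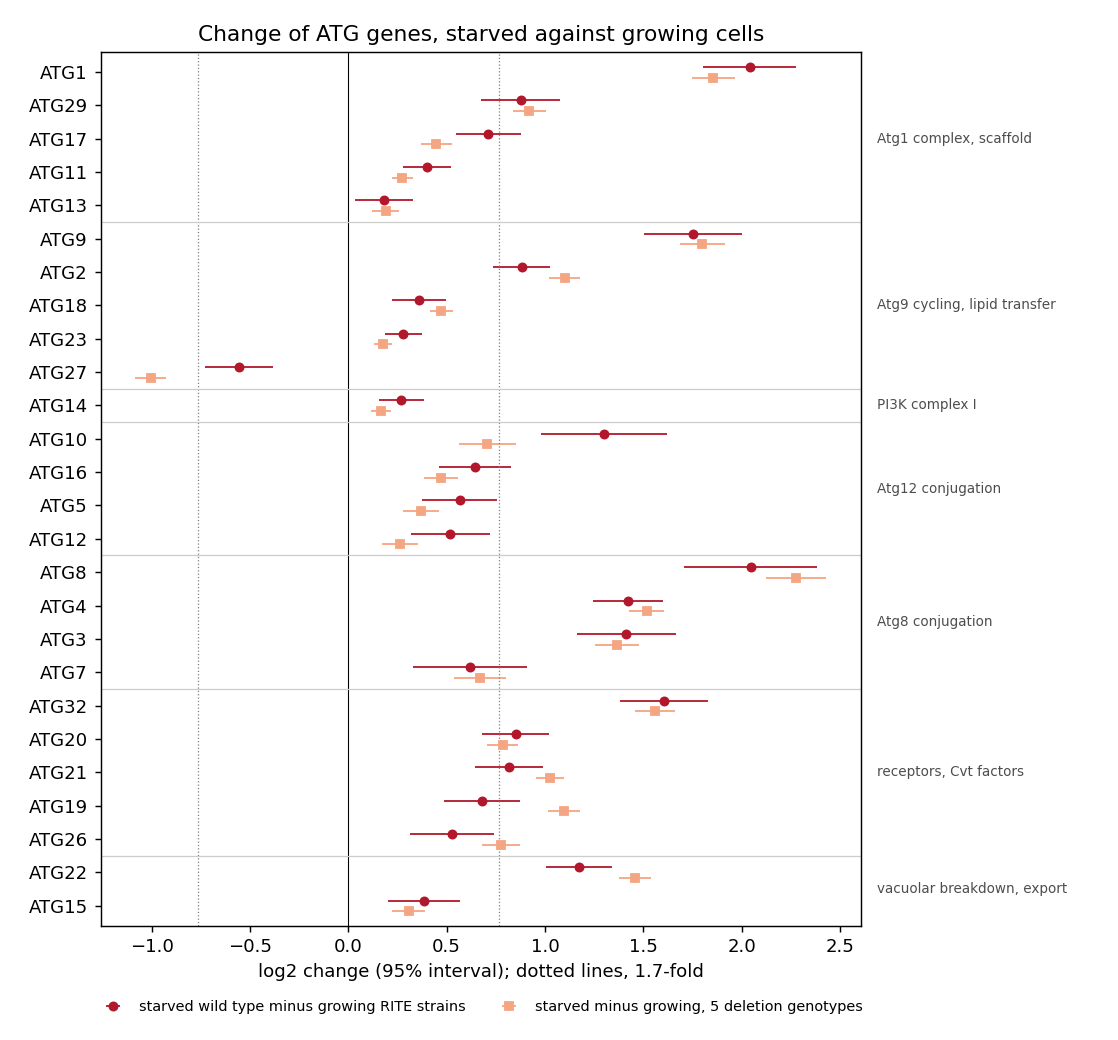
Log2 change (x axis, with 95% intervals) of each ATG gene in starved wild type minus growing RITE strains (circles) and in starved minus growing deletion strains of the same 5 genotypes (squares), with dotted lines at 1.7-fold. In both comparisons 25 genes lie above 0 and ATG27 lies below it.

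The same 5 genotypes, hat1Δ, hat2Δ, hif1Δ, hat1Δhif1Δ and hat2Δhif1Δ, were profiled starved and growing, which gave a second set of cultures for the question. The changes share no array with the first comparison, but they share the reference RNA. All 16 starved arrays were in the fits of both comparisons, so their SEs and p-values are not independent. The starved strains were RITE strains of mating type a and the growing strains were not, so strain background and starvation cannot be told apart here. Again 25 ATG genes were higher in starved cells, where 46.4% of all probes were, and 1 was lower, where 45.1% of all probes were. At least 1.7-fold higher were 13 ATG genes, against 21.1% of all probes, and ATG27 alone was at least 1.7-fold lower, against 18.2% of all probes. The median change of the members was 0.74.

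ATG8 read 1.77 at the lowest, 2.25 at the median and 2.89 at the highest of the 10 starved arrays, against -0.10, 0.01 and 0.05 on the 10 growing arrays. It rose by 2.28 (SE 0.07, adjusted p = 4.2e-15), and by 14.1-fold in place of 4.85-fold without the offset. ATG1 read 1.31, 1.73 and 2.04 on starved arrays, against -0.35, -0.18 and 0.06 on growing arrays, a change of 1.86 (SE 0.05). ATG9 changed by 1.80 (SE 0.05), ATG32 by 1.56 (SE 0.05) and ATG4 by 1.52 (SE 0.04). ATG22 changed by 1.46 (SE 0.04) and ATG3 by 1.37 (SE 0.05). All of these were also among the genes with the largest rise in starved wild type. ATG10 was the exception, at 1.30 in starved wild type and 0.71 here, the largest gap of any member.

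ATG27 read -1.20, -1.08 and -0.89 (lowest, median, highest) on the 10 starved arrays, against -0.11, -0.05 and 0.05 on the 10 growing arrays. The groups did not overlap, and ATG27 fell by 1.00 (SE 0.04, adjusted p = 3.4e-14), or 2.01-fold. Among the other members, the receptor gene ATG19 read 0.94, 1.20 and 1.39 on starved arrays, against -0.08, -0.01 and 0.39 on growing arrays, and rose by 1.10 (SE 0.04, adjusted p = 1.9e-14). ATG12 read 0.28, 0.58 and 0.71 on starved arrays, against 0.19, 0.29 and 0.38 on growing arrays, with overlap, and its change was 0.26 (SE 0.04, adjusted p = 2.4e-05).

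Taken one genotype at a time, the count of ATG genes called higher in starved cells was 23 of 26 in hat1Δ, where 41.6% of all probes were called higher, 23 in hat2Δ (41.0% of all probes) and 24 in hif1Δ (41.0%). It was 24 in hat1Δhif1Δ (41.6%) and 22 in hat2Δhif1Δ (41.0%). ATG27 fell in all 5 genotypes, with changes of -1.15 to -0.95. With both double deletions pooled in 1 contrast, where starved and growing arrays lie in the same array set, 25 ATG genes were called higher (43.9% of all probes) and 1 lower (42.9% of all probes).

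ATG10 was the member for which a single strain moved the result. Both of its spots were blank in both channels on both starved hat2Δhif1Δ arrays, where it read -0.13 and 0.10, and 1 of its 2 spots was blank on 1 starved array each of hat1Δhif1Δ and H4K5,12Q. The change over all 5 genotypes was 0.71 (SE 0.07, adjusted p = 2.7e-08). With blank spots left out, also a setting chosen after seeing the data, and over the 4 genotypes other than hat2Δhif1Δ it was 0.96 (SE 0.05).

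ATG8 read higher on starved arrays with signal at the ATG33 spot, which were double deletions and histone mutants, than on those without. Starved arrays without signal at the ATG33 spot gave 1.77 to 2.27, and those with it gave 2.23 to 2.89, so the ranges overlapped only between 2.23 and 2.27. The rise of ATG8 in starved cells was 2.62 (SE 0.11) in double deletions and 2.05 (SE 0.09) in single deletions. The difference of 0.58 (SE 0.15) was not called (adjusted p = 0.55 over all probes, of which 0.0157% were called and 0 of 26 members). Array set and genotype go together among starved arrays and cannot be told apart in it.

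**Figure D3:**
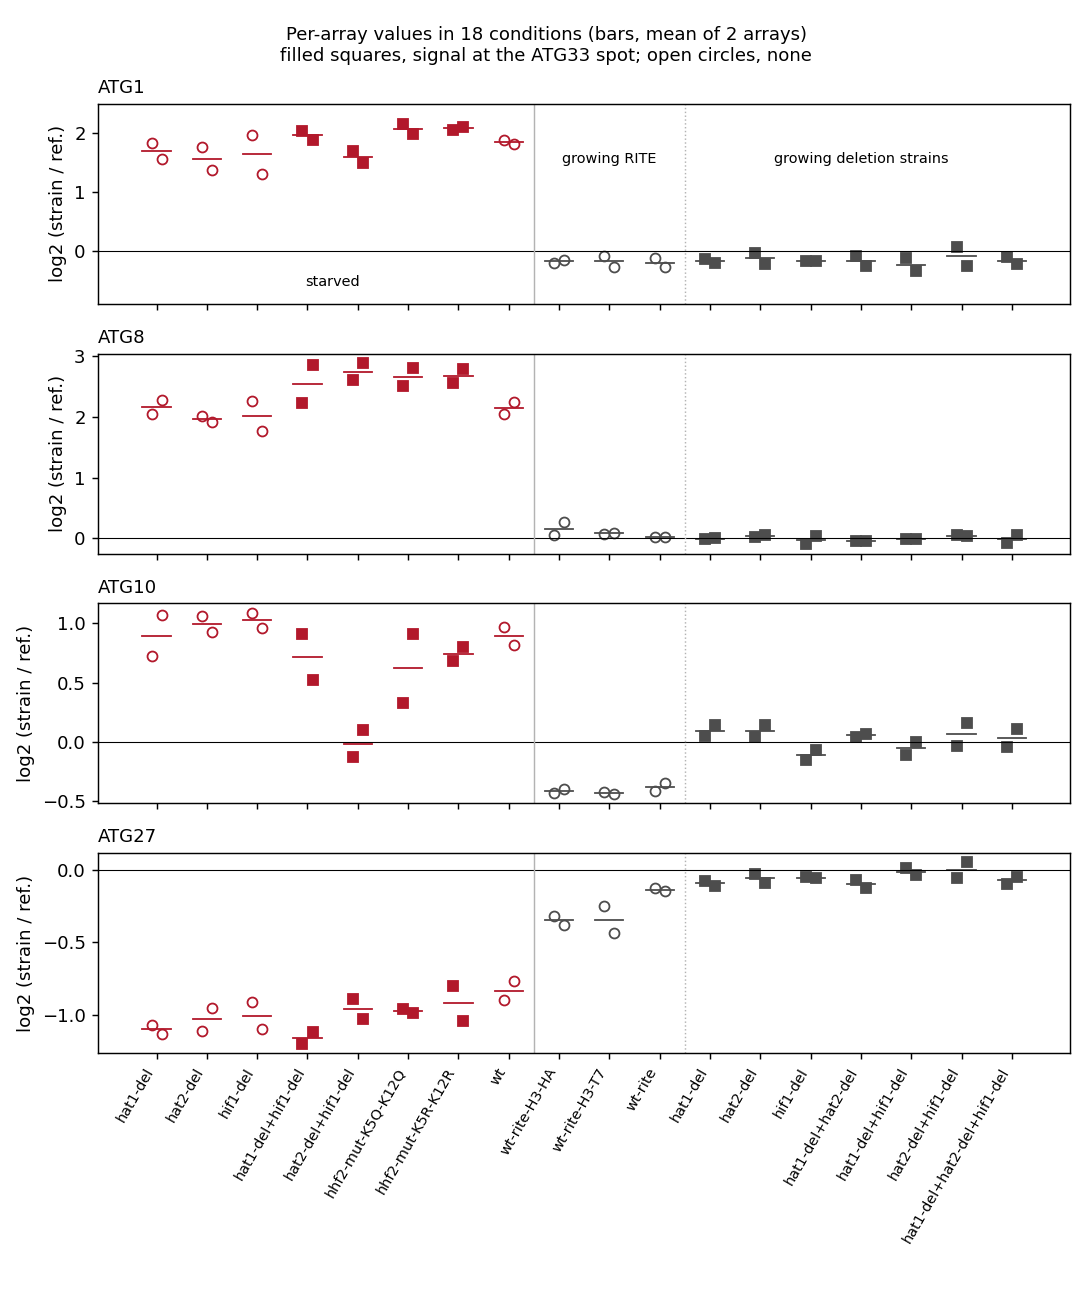
Per-array log2 ratios of strain over reference (y axis) of ATG1, ATG8, ATG10 and ATG27 in the 18 conditions (x axis, starved at the left), with bars at the mean of 2 arrays and symbols for the array set. ATG8 lies between 1.77 and 2.27 on starved arrays drawn as open circles and between 2.23 and 2.89 on those drawn as squares, and ATG10 lies near 0 in starved hat2Δhif1Δ, where its spots were blank.

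Starved mutants were then set against starved wild type, to ask whether loss of NuB4 subunits or of the H4 lysines they act on goes with other levels of the autophagy genes in the arrest. None of the 26 ATG genes was called by limma in hat1Δ (0.0157% of all probes called), hat2Δ (0.0157%) or hif1Δ (0.329%). None was called in hat1Δhif1Δ (0.0626%), hat2Δhif1Δ (0.157%), H4K5,12Q (0.595%) or H4K5,12R (3.24%), nor between H4K5,12Q and H4K5,12R (0% of all probes). At an unadjusted p under 0.05 there were 4 of 26 members in hat1Δ (4.13% of all probes), 3 in hat2Δ (7.33%), 0 in hif1Δ (11.1%) and 2 in hat1Δhif1Δ (10.8%). There were 3 in hat2Δhif1Δ (11.3%), 2 in H4K5,12Q (16.8%), 4 in H4K5,12R (22.1%) and 1 between both H4 mutants (4.18%).

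With 2 arrays a strain, these comparisons were coarse. For ATG1, which read 1.83 and 1.56 in starved hat1Δ and 1.89 and 1.82 in starved wild type, the difference was -0.16 with a 95% interval of -0.47 to 0.16. In starved hat2Δ ATG1 read 1.76 and 1.37, a difference of -0.29 with an interval of -0.60 to 0.03. In starved hif1Δ it read 1.98 and 1.31, and the difference was -0.21 with an interval of -0.53 to 0.10. The replicates of a strain spread as widely as the strains did, and differences of this size were not detectable.

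In the strains that lie in the other array set than starved wild type, ATG8 had the highest change of all members. It read 2.60 and 2.89 in starved hat2Δhif1Δ, 2.23 and 2.86 in hat1Δhif1Δ, 2.51 and 2.81 in H4K5,12Q and 2.55 and 2.79 in H4K5,12R, against 2.04 and 2.24 in starved wild type. The changes were 0.61, 0.41, 0.52 and 0.53 (SE 0.20 each), with adjusted p-values of 0.31, 0.51, 0.24 and 0.17. ATG10 had the lowest change, -0.91 (SE 0.20, adjusted p = 0.15), in hat2Δhif1Δ, where its spots were blank. ATG5, which read 0.72 and 0.86 in H4K5,12R, 0.40 and 0.50 in H4K5,12Q and 0.43 and 0.28 in starved wild type, came nearest to a call, with a change of 0.43 in H4K5,12R (SE 0.12, adjusted p = 0.073), and it was called there on the authors' normalized ratios.

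The count of 0 rests on the estimate of the spread. When all 36 arrays shared 1 fit, in which the growing arrays with their smaller spread also count, 10 calls were made. They were ATG8 higher in hat2Δhif1Δ and in both H4 mutants, ATG5 and ATG23 higher in H4K5,12R, ATG17 lower in hat2Δ, hat2Δhif1Δ and H4K5,12Q, ATG10 lower in hat2Δhif1Δ and ATG27 lower in hat1Δhif1Δ. Of these, the call of ATG17 in hat2Δ (0.70 and 0.39, against 1.03 and 0.68 in starved wild type) is the one made within a single array set. The count also changed when either starved hif1Δ array was left out. Calls over all probes were not counted in these fits, so the member calls have no share to stand against.

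**Figure D4:**
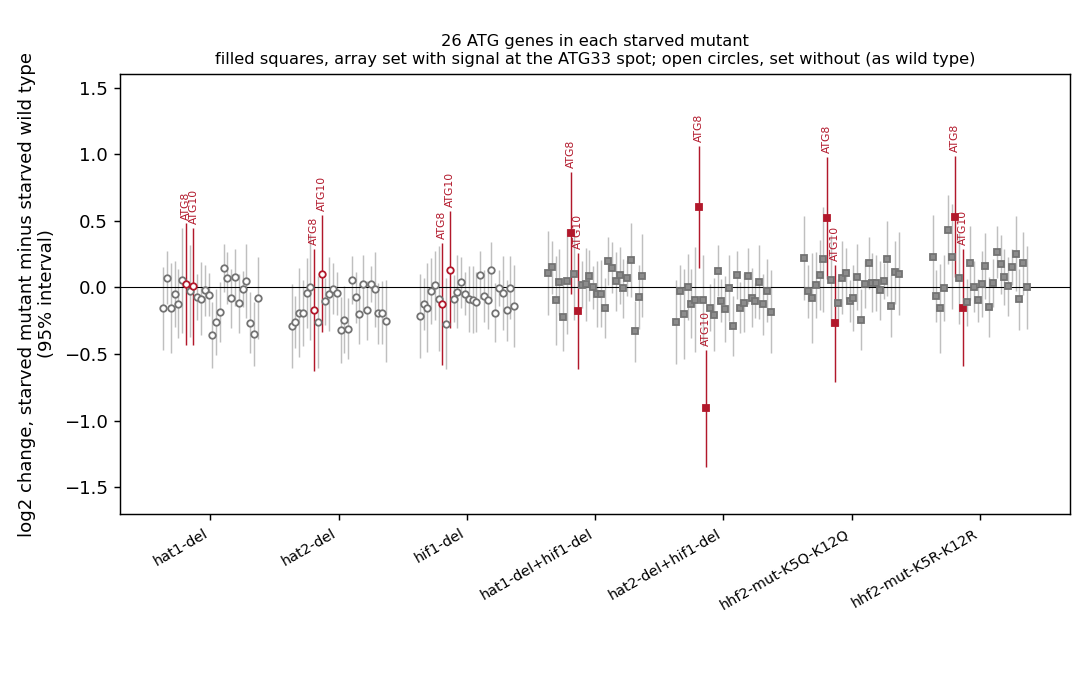
Log2 change (y axis, with 95% intervals) of the 26 ATG genes in each starved mutant minus starved wild type, in gene order from left to right within a mutant, with ATG8 and ATG10 in red. Changes lie between -0.36 and 0.14 in hat1Δ, and ATG8 stands highest, at 0.41 to 0.61, in the 4 mutants of the other array set.

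The HIF1 deletion was compared between starved and growing cells, as the change from hat1Δ and hat2Δ to both double deletions. No ATG gene was called, where 0.0157% of all probes were called, and 7 of 26 had an unadjusted p under 0.05, as had 7.65% of all probes. The highest difference was that of ATG8, 0.57 (SE 0.16, adjusted p = 0.47), and the lowest that of ATG10, -0.51 (SE 0.15, adjusted p = 0.49), which includes the starved hat2Δhif1Δ arrays where its spots were blank. Starved single and double deletions lie in different array sets, so set and deletion cannot be told apart in these differences.

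In growing cells each of the 3 deletions was compared on matched backgrounds within the 14 deletion arrays. No ATG gene was called for HIF1 deletion (0.329% of all probes called), HAT1 deletion (4.70%) or HAT2 deletion (0.0157%), with 1, 6 and 1 members at an unadjusted p under 0.05, as had 15.2%, 24.9% and 4.60% of all probes. Here the changes were small, from -0.08 to 0.09 for HIF1, from -0.15 to 0.09 for HAT1 and from -0.05 to 0.07 for HAT2 deletion. ATG2 came nearest to a call. It read -0.08 and -0.24 in hat1Δhat2Δ, -0.16 and -0.27 in hat1Δhif1Δ and -0.23 and -0.30 in the triple deletion, against 0.04 and -0.15 in hat2Δ, -0.17 and -0.05 in hif1Δ and 0.11 and -0.16 in hat2Δhif1Δ. The ranges overlapped, and the change was -0.15 (SE 0.04, adjusted p = 0.061). The number of calls over the 3 deletions changed when single arrays were left out, in fits where calls over all probes were not counted.

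Epitope tags on H3 were compared with untagged H3 in growing RITE strains. The fit also held the 14 growing deletion arrays, so the SEs and p-values below measure the spread of those strains too. With H3-HA, 4 ATG genes were higher, where 25.3% of all probes were, and 1 was lower, where 19.3% of all probes were. With H3-T7, 5 were higher (22.7% of all probes) and 1 was lower (15.4% of all probes). The shares of the members were below those of all probes, and 0 members reached 1.7-fold.

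ATG19 had the largest change with either tag. It read 0.55 and 0.77 with H3-HA and 0.76 and 0.59 with H3-T7, against 0.21 and -0.06 with untagged H3. The tagged and untagged arrays were separate, with changes of 0.59 (SE 0.10, adjusted p = 8.4e-04) for H3-HA and 0.60 (SE 0.10, adjusted p = 9.7e-04) for H3-T7. ATG2 read 0.29 and 0.30 with H3-HA and 0.30 and 0.16 with H3-T7, against 0.01 and -0.08 untagged, and changed by 0.33 and 0.27 (SE 0.07 each).

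ATG27 was again the member that was lower. It read -0.32 and -0.38 with H3-HA and -0.25 and -0.44 with H3-T7, against -0.13 and -0.15 with untagged H3, and both changes were -0.21 (SE 0.05, adjusted p = 0.0054 for H3-HA and 0.0073 for H3-T7). ATG3 and ATG9 were higher with both tags (0.27 and 0.22 for ATG3, 0.19 and 0.19 for ATG9). ATG22, higher with H3-T7 (0.41 and 0.51, against 0.14 and 0.18 untagged), changed by 0.29 (SE 0.06, adjusted p = 0.0043), and with H3-HA by 0.11 (adjusted p = 0.19). A test of H3-T7 against H3-HA was not run. With all 36 arrays in 1 fit the calls of ATG27, ATG3 and ATG9 were lost with both tags, which left ATG2 and ATG19 with H3-HA and ATG2, ATG19 and ATG22 with H3-T7.

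Stress and stationary phase genes moved in the same strains. Of 8 such genes, 6 were higher with H3-HA and 7 with H3-T7. HSP12, a stress protein gene, read 3.06 and 3.62 with H3-HA and 3.48 and 3.91 with H3-T7, against 2.30 and 2.23 untagged. The part of this state in the ATG differences was not tested. The number of calls with either tag changed when single arrays were left out, in fits where calls over all probes were not counted.

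**Figure D5:**
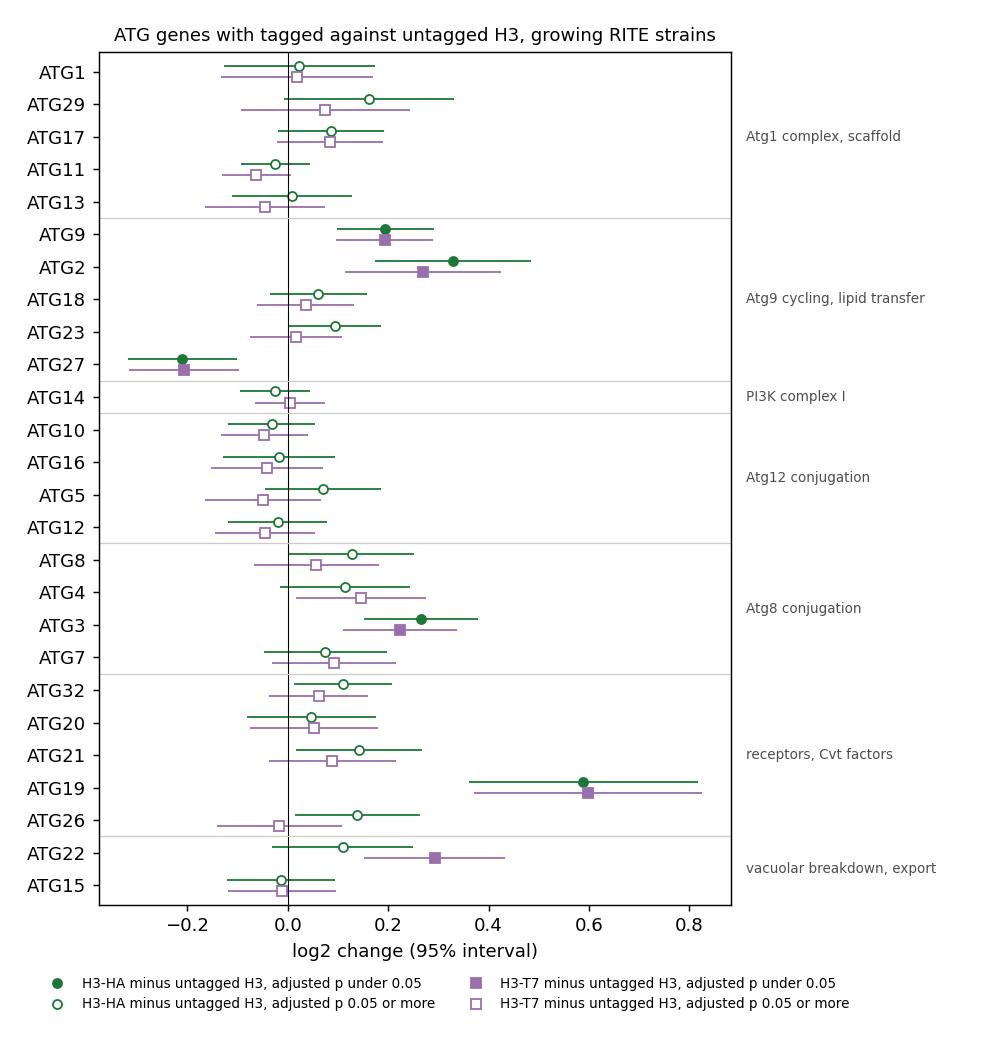
Log2 change (x axis, with 95% intervals) of each ATG gene in growing H3-HA (circles) and H3-T7 (squares) strains minus the untagged strain, filled where the adjusted p was under 0.05. ATG19 lies farthest to the right, at 0.59 and 0.60, and ATG27 is the filled gene to the left of 0, at -0.21 with both tags.

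The growing RITE strains were last set against the growing deletion strains. Higher in RITE strains were 13 ATG genes, where 36% of all probes were, and lower were 7, where 41.0% of all probes were, and 0 reached 1.7-fold in either direction. ATG10 read -0.44, -0.41 and -0.35 (lowest, median, highest) on 6 RITE arrays, against -0.15, 0.04 and 0.16 on 14 deletion arrays, with no overlap. It was lower by 0.43 on the log2 scale (change -0.43, SE 0.02, adjusted p = 1.1e-09). ATG22 read 0.14, 0.29 and 0.51 on RITE arrays, against -0.23, -0.14 and 0.03 on deletion arrays, and was higher by 0.42 (SE 0.03, adjusted p = 1.4e-07).

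ATG12 showed the opposite, at 0.04, 0.12 and 0.14 on RITE arrays, against 0.19, 0.30 and 0.38 on deletion arrays, with a change of -0.19 (SE 0.02, adjusted p = 9.1e-06). ATG19 overlapped between the groups because the untagged RITE strain was low, at -0.06, 0.57 and 0.77 on RITE arrays, against -0.21, 0.02 and 0.39 on deletion arrays, and was higher by 0.45 (SE 0.05, adjusted p = 5.3e-06). ATG1 did not pass the test (change -0.02, SE 0.03, adjusted p = 0.59). Mating type, Cre, the H3 tags of H3-HA and H3-T7, the histone and auxotrophic markers, the deletions and the array set differ between these strains. They cannot be told apart. The mean of ATG19 was 0.08 in the untagged RITE strain, against 0.66 with H3-HA and 0.67 with H3-T7. Of the 8 stress genes, 7 were also higher in the RITE strains.

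Autophagy genes listed in the annotation under other symbols also rose in starved wild type against growing RITE strains. ATG31, listed as CIS1 and the partner of Atg17 and Atg29, changed by 1.71 (SE 0.10), ATG41, listed as ICY2, by 1.13 (SE 0.13) and ATG24, the sorting nexin listed as SNX4, by 0.61 (SE 0.07). ATG6, listed as VPS30 and a subunit of the phosphatidylinositol 3-kinase, changed by 0.19 (SE 0.07, adjusted p = 0.020).

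Genes that work with the Atg proteins but carry other names were described from 6 lists, for starved wild type against growing RITE strains, where 40.0% of all probes were called higher and 38.2% lower. Of 7 vacuolar hydrolases and Cvt cargo genes, 4 were higher and 2 lower, at a median change of 1.30. CPS1, a vacuolar carboxypeptidase, rose by 2.56 (SE 0.13) and AMS1, the vacuolar mannosidase carried by the Cvt pathway, by 2.39 (SE 0.17). In the 5 deletion genotypes 6 of the 7 were higher and 0 lower, with CPS1 at 2.14 and AMS1 at 2.95.

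Of 13 transcription factors and repressors that act on nutrient-responsive genes, 7 were higher and 3 lower, at a median of 0.40. DAL80, a GATA factor that represses nitrogen catabolic genes, rose by 2.26 (SE 0.20), and GCN4, the activator of amino acid synthesis genes, by 2.01 (SE 0.09), with 2.22 and 2.30 in the 5 deletion genotypes. UME6, which represses ATG8 in growing cells and is named here for that role, had a change of 0.17 in starved wild type (adjusted p = 0.13) and -0.15 in the 5 deletion genotypes (adjusted p = 0.0059).

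Of 12 TORC1 components and upstream regulators, 10 were higher and 2 lower, at a median of 0.53. The lower genes were TOR1, at -0.46 (SE 0.09), and KOG1, at -0.34 (SE 0.07). LST8, a TORC subunit, rose by 0.84 (SE 0.07) and SLM4, a subunit of the vacuolar complex that holds the Gtr proteins, by 0.73 (SE 0.07). Of 10 nutrient kinase genes, 5 were higher and 5 lower, at a median of 0.00, with TPK2, a catalytic subunit of protein kinase A, higher by 1.27 (SE 0.11) and the GTPase gene RAS2 at -1.07 (SE 0.11). Of 18 membrane traffic and vacuole fusion genes, 5 were higher and 8 lower, at a median of -0.02, with VAC8, which anchors the autophagosome assembly site to the vacuole, at -1.33 (SE 0.11) and the SNARE gene YKT6 at -0.86 (SE 0.08). Of 4 subunits of the phosphatidylinositol 3-kinase, 3 were higher and 0 lower, led by VPS34, its catalytic subunit, at 0.55 (SE 0.09) and VPS15 at 0.23 (SE 0.08).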

How the data were processed

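The authors deposited scanner intensity per spot and its local background for each of 36 dual-channel arrays, without background correction, and a matrix of normalized, dye-corrected log2 ratios (strain to reference). The submitters' processing notes list limma 2.12.0. Another deposited table holds the authors' own comparisons and was not used. Background was removed from the intensities by normexp (offset 50). Arrays were then loess-normalized one by one, giving control spots weight 0, and the 2 spots of a probe were averaged (R 4.3.3, limma 3.58.1). Per-gene linear models with moderated variances had a dye term per experiment, which is also the replicate letter. Starved and growing arrays shared a fit for comparisons between them. Comparisons among starved arrays and among growing deletion arrays had fits of their own. All growing arrays shared a fit for the tags and for RITE against deletion strains. Adjusted p-values are Benjamini-Hochberg values across 6388 probes, and a gene was called at an adjusted p under 0.05. SE is the moderated standard error. Above background means a strain signal more than 2 background SDs over the local background. The number of arrays limits the precision. Deviations of arrays with the same letter correlated at a median of 0.50 in starved (-0.22 to 0.76), 0.25 in growing RITE and 0.59 in growing deletion arrays, and arrays with the same letter share the dye orientation, so pairing and dye cannot be told apart.

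Every ATG gene was placed in a role group. Per-array values are given for the 10 with the largest called change in starved wild type, for ATG1 and ATG8, and for the 6 with the smallest adjusted p among those called between growing strains. In each of 6 related lists the 2 called genes with the largest change are named. Per-array values of ATG5 and ATG17 in starved mutants and of ATG2 in the HAT1 comparison, and UME6, TOR1 and KOG1, were chosen after their values were seen. Members and lists were chosen with earlier results of these data known. Genes named differently in the files were matched through RefSeq synonyms. No sequence or genome coordinate was used. All 26 members were matched to RefSeq. The scripts were tested on simulated data. The alternatives were other background corrections, normalizations, filters, fits and controls, the authors' ratios and leaving out single arrays.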

Additional observations from a re-analysis of the deposited data

Results flagged for a closer look

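ATG33, which encodes a mitochondrial outer membrane protein needed for mitophagy in yeast, stood outside the comparisons because its spot was blank on 14 arrays. On the 22 arrays with signal it can be read in both double deletions. It read 1.42 and 2.15 in starved hat1Δhif1Δ and 1.89 and 1.75 in starved hat2Δhif1Δ, against -0.28 and -0.13 in growing hat1Δhif1Δ and -0.06 and -0.03 in growing hat2Δhif1Δ. The change was 1.93 (SE 0.086, limma, adjusted p = 1.3e-12), with all starved arrays of these strains above all growing ones. The fit also held the starved arrays where the spot was blank, so the SE and adjusted p rest partly on their spread. No condition has enough arrays for a search for single arrays that stand apart.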

How the results depend on the processing

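With probes below the 25th percentile of brightness left out, which leaves 15 members, 14 were called higher in starved wild type and 14 in the 5 starved deletion genotypes, 2 were lower in growing RITE against deletion strains, and growing NuB4 deletions gave 1 call. Median centring gave 1 call among starved mutants, 4 among growing deletions, 9 with H3-HA, and 4 genes lower in RITE strains. The authors' ratios gave 1 call among starved mutants (ATG5 in H4K5,12R), and no background correction gave 1 among growing deletions. With all 36 arrays in 1 fit there were 10 calls among starved mutants, 2 with H3-HA and 3 with H3-T7. Leaving out single arrays gave 0 to 1 calls among starved mutants, 0 to 6 among growing deletions, 3 to 12 with H3-HA and 2 to 6 with H3-T7, against 24 to 25 genes higher in starved wild type. ATG14 turned to -0.059 in the 5 genotypes under median centring (main value 0.17). For starved mutants, growing deletions and tags, calls over all probes were not counted under these settings, so the member counts have no share beside them. The causes were not tested.

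Without the replicate block, 24 genes were higher in starved wild type, as ATG13 was lost (adjusted p = 0.10), 25 in the 5 genotypes, and H3-HA and H3-T7 gave 5 calls each. The single-gene changes for starved against growing cells kept direction and call in 597 alternatives, lost the call in 5 and reversed in 1. Slide and scan date were not run, since the files give neither, nor were promoter motifs. Dim spots limit ATG14, ATG11 and the size of the ATG8 change.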
